A study of Mus musculus with 2 samples.

Results

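The regions described here are all those on chromosome 8 at which H2A.Z tagged with YFP was enriched in mouse embryonic stem (ES) cells. They were chosen by chromosome alone, from 4 lists of enriched regions, 2 for each of 2 chromatin immunoprecipitation sequencing (ChIP-seq) libraries, and they number 27856 of the 421421 regions on all chromosomes. The K3R3 library came from cells with an H2A.Z in which the lysines labelled K119, K120 and K123 are arginines, and the wild-type library from cells with unmutated H2A.Z. Each group had 1 library, so every value sets 2 libraries side by side, no difference is backed by replicates and p-values are not used.

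What the groups share limits them as models. Both histones carried YFP at the C-terminus and were expressed from a lentiviral construct with a doxycycline-inducible CMV promoter (1 µg/ml doxycycline). Both groups were YFP-positive cells taken by flow sorting from KH2 ES cell lines, with the strain labelled V6.5 (129SvJaexC57BL/6). In both, hairpins against the 3′ UTR of endogenous H2A.Z were also used, in the wild-type control as in K3R3. The antibody listed, Abcam Ab290, is one against GFP that also binds YFP, so the lists report the tagged protein and not the endogenous one.

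The histone variant H2A.Z stands in for histone H2A where remodelling complexes of the SWR1 family exchange it into nucleosomes, mainly beside transcription start sites and at enhancers. In ES cells it is known from active promoters and also from promoters of silent developmental regulators that carry Polycomb marks. Lysines at its C-terminus are mono-ubiquitylated by the Polycomb protein RING1B, and an arginine in their place cannot carry ubiquitin. The lists give a chromosome, a start and an end for each region, with no height, so what can be read from them is where each library passed a threshold and over what length. The main lists are those at the threshold named 1e-09 (looser), and the lists at 1e-12 (stricter) are used where named. Regions were not assigned to genes, since the only gene table is of another genome build.

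On chromosome 8 the K3R3 library had fewer regions than the wild type, covered less of the chromosome, and had shorter regions at places both libraries held. Chromosome 11, with 79.0 places (sets of overlapping regions of either library) per Mb against 64.4 on chromosome 8, is given beside it throughout. It was chosen for a like density of regions and for having no wild-type excess, so its count ratio is a description that the choice fixed. Its covered length and widths come from the same lists and are descriptions too. The K3R3 list held 6288 regions on chromosome 8 and the wild-type list 7819, a K3R3 over wild-type ratio of 0.804 (95% exact interval 0.778 to 0.831). On chromosome 11 the K3R3 list held 8583 regions and the wild-type list 7443, a ratio of 1.15 (1.12 to 1.19). All intervals cover the error of counting and no other, and count each region as independent. The ratio on chromosome 8 lay below the range of the 17 autosomes other than 6 and 8, which ran from 1.15 on chromosome 11 to 1.29 on chromosome 13. Chromosome 6 was the nearest, at 0.778.

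The K3R3 deficit was larger in covered length than in number of regions. K3R3 regions covered 3.09 Mb of chromosome 8 and wild-type regions 4.32 Mb, a ratio of 0.715, whereas on chromosome 11 they covered 4.45 Mb and 4.10 Mb, a ratio of 1.09. The median region on chromosome 8 was 325 bp wide in K3R3 and 350 bp wide in the wild type. Regions of at least 2000 bp on chromosome 8 numbered 120 in K3R3 and 248 in the wild type, against 169 in K3R3 and 171 in the wild type on chromosome 11. Read depth and an input library were not part of these lists. Fewer reads from the chromosome as a whole and less H2A.Z at each place cannot be told apart, and the number of copies of chromosome 8 in each cell line was not tested.

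The lower K3R3 count extended along the whole of chromosome 8 rather than resting on a few stretches. In 5 Mb windows with at least 50 regions of each library, the ratio ran from 0.709 to 0.876 with a median of 0.793, and it was below 1 in 24 of 24 windows. The lowest ratio was at 40 to 45 Mb (56 K3R3 and 79 wild-type regions) and the highest at 70 to 75 Mb (382 K3R3 and 436 wild-type regions). Chromosome 11 had ratios that ran from 0.931 to 1.32 and was below 1 in 1 of 25 windows. The highest window of chromosome 8 was thus below the lowest of chromosome 11. In windows of 10 Mb the ratio ran from 0.732 to 0.863 over 13 windows of chromosome 8 and from 1.02 to 1.29 over 13 windows of chromosome 11. The 3 windows of chromosome 8 with too few regions included 1 in which K3R3 had more, with 36 K3R3 and 35 wild-type regions at 50 to 55 Mb.

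**Figure D1:**
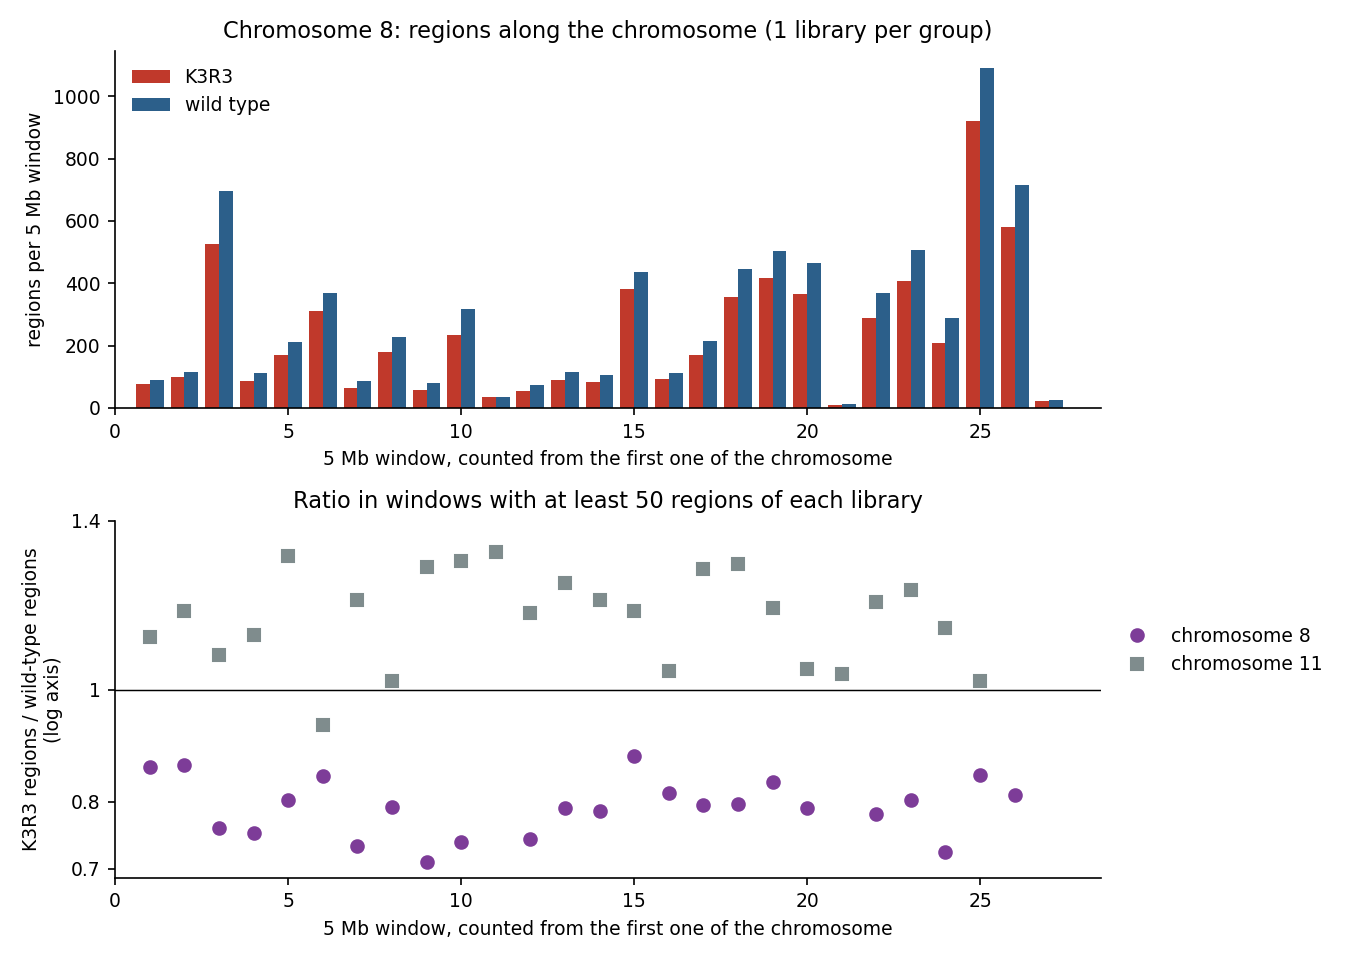
Upper panel, number of K3R3 (red) and wild-type (blue) regions in each 5 Mb window of chromosome 8 in the looser lists. Lower panel, K3R3 regions over wild-type regions per window on a log axis, for windows with at least 50 regions of each library on chromosome 8 (circles) and chromosome 11 (squares); the 24 chromosome 8 windows lie between 0.709 and 0.876, and 24 of the 25 chromosome 11 windows lie above 1.

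A stretch of 5 Mb near the distal end, with its first region starting at chr8:121001401 and its last ending at chr8:125976850, held far more regions than the rest of the chromosome. This distal stretch had 257.2 places per Mb, against 56.8 on the rest of chromosome 8. It makes up 3.80% of the length of the chromosome and held 16.0% of its K3R3 regions and 15.3% of its wild-type regions. Its regions were also wider, with a median of 450 bp in K3R3 and 525 bp in the wild type, against 300 bp in K3R3 and 325 bp in the wild type elsewhere on the chromosome. Chromosome 11 has no 5 Mb window as dense, its densest having 205.4 places per Mb.

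K3R3 had fewer regions than the wild type both in the distal stretch and in the rest of chromosome 8. The distal stretch held 1005 K3R3 and 1198 wild-type regions, a ratio of 0.839 (0.771 to 0.913), and the rest held 5283 K3R3 and 6621 wild-type regions, a ratio of 0.798 (0.769 to 0.827). The 2 intervals overlap. With neighbouring regions within 1000 bp joined, the distal ratio was 0.917 (0.823 to 1.02), an interval that takes in 1. Covered length gave 0.719 in the distal stretch and 0.714 in the rest. The densest window of chromosome 11 had a count ratio of 1.13. Across 1 Mb windows of chromosome 8 grouped by their number of places, a grouping chosen after seeing the data, the ratio was 0.768 in windows with under 20 places and 0.828 in those with at least 200. On chromosome 11 it was 1.13 with under 20 places and 1.20 with at least 200. Density of regions thus moved the ratio on chromosome 8 by less than the gap between the chromosomes.

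Most K3R3 regions on chromosome 8 lay at places the wild type also held, while nearly 1 wild-type region in 3 had no K3R3 partner. A region was counted as shared where it and a region from the other library had 1 bp or more in common. On chromosome 8, 5597 K3R3 regions (89.0%, 95% Wilson interval 88.2 to 89.8) and 5356 wild-type regions (68.5%, 67.5 to 69.5) were shared. Over all chromosomes the shares were 71.9% of K3R3 and 81.6% of wild-type regions, the order being the opposite. On chromosome 11, 73.1% of K3R3 (72.1 to 74.0) and 84.1% of wild-type regions (83.2 to 84.9) were shared. Over the 17 autosomes other than 6 and 8 the range was 66.0 to 73.1% for K3R3 and 83.2 to 85.9% for the wild type, so chromosome 8 lay outside both. Chromosome 6 had nearly the values of chromosome 8, with 88.8% of K3R3 and 66.9% of wild-type regions shared. The 2 shares have nearly the same number of shared regions over lists of unequal length. With the widest regions taken in equal numbers from both libraries, 80.4% of K3R3 and 76.4% of wild-type regions on chromosome 8 were shared.

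Counted by place, the 8484 places of chromosome 8 comprised 5330 held by both libraries (62.8%), 691 held by K3R3 only (8.14%) and 2463 held by the wild type only (29.0%). The 9626 places of chromosome 11 comprised 63.7% held by both, 24.0% held by K3R3 only and 12.3% held by the wild type only. The jointly held part was thus close on the 2 chromosomes, and the 1-library parts were in opposite order. Places were not counted over all chromosomes or on chromosome 6. By region, all chromosomes together had the order of chromosome 11, and chromosome 6 had that of chromosome 8. Runs of at least 3 successive places of 1 library had the same order, which follows in part from the shares of places. On chromosome 8 there were 9 such runs for K3R3, the longest of 4 places, and 158 for the wild type, the longest of 11. On chromosome 11 there were 143 runs for K3R3, the longest of 8 places, and 36 for the wild type, the longest of 6.

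Sharing in the distal stretch was close to that in the rest of chromosome 8. In the distal stretch 90.2% of K3R3 regions (88.3 to 91.9) and 70.7% of wild-type regions (68.1 to 73.2) were shared, and in the rest 88.8% of K3R3 (87.9 to 89.6) and 68.1% of wild-type regions (67.0 to 69.2). Over the 24 windows of 5 Mb with enough regions, the shared part ran from 80.4 to 96.4% for K3R3 and from 57.0 to 76.9% for the wild type. These ranges do not overlap. On chromosome 11 they were 66.3 to 80.8% for K3R3 and 70.7 to 88.5% for the wild type.

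Wider regions were shared more often in both libraries. Among K3R3 regions of chromosome 8, the shared part was 72.6% under 200 bp, 90.5% at 200 to below 400 bp, 95.7% at 400 to below 800 bp, and 99.2% both at 800 to below 1600 bp and at 1600 bp or more. Among wild-type regions it was 37.9% under 200 bp, 68.0% at 200 to below 400 bp, 79.4% at 400 to below 800 bp, 85.7% at 800 to below 1600 bp and 95.1% at 1600 bp or more. Regions without a partner were accordingly narrow, at a median of 150 bp in K3R3 and 200 bp in the wild type, against 350 bp in K3R3 and 450 bp in the wild type for shared ones.

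Even among fairly wide wild-type regions, those of 800 to below 1600 bp, more lacked a K3R3 partner on chromosome 8 than on chromosome 11. Of these, 85.7% (83.6 to 87.6) were shared on chromosome 8 and 94.1% (92.7 to 95.2) on chromosome 11. The 17 autosomes other than 6 and 8 ran from 93.0 to 96.9% in this class, and chromosome 6, at 89.8%, was also below that range. In the class of at least 1600 bp, chromosome 8 at 95.1% lay inside their range of 94.1 to 100%. Within chromosome 8 the class of 800 to below 1600 bp was shared at 81.3% (76.2 to 85.5) in the distal stretch and 87.0% (84.7 to 89.0) in the rest. The distal value was lower, with overlapping intervals.

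**Figure D2:**
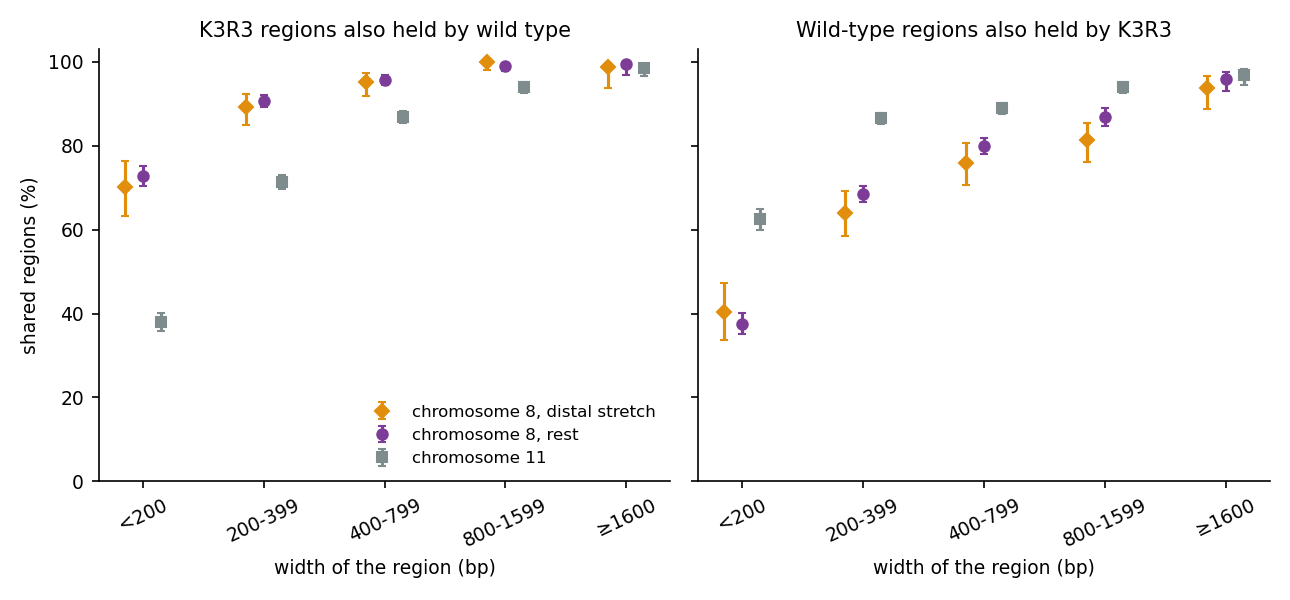
Share of K3R3 regions that overlap a wild-type region (left) and of wild-type regions that overlap a K3R3 region (right), by width of the region in bp, with 95% Wilson intervals. The distal stretch of chromosome 8 (diamonds), the rest of chromosome 8 (circles) and chromosome 11 (squares) are shown; in the class under 200 bp, K3R3 regions were shared at 72.6% on chromosome 8 and 38.0% on chromosome 11, and wild-type regions at 37.9% and 62.4%.

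The K3R3 deficit on chromosome 8 grew with width. The count ratio was 0.885 for regions under 200 bp (1517 K3R3 and 1715 wild-type), 0.830 at 200 to below 400 bp, 0.817 at 400 to below 800 bp, 0.713 at 800 to below 1600 bp, and 0.555 (0.476 to 0.647) at 1600 bp or more (261 K3R3 and 470 wild-type). The widest class gave 0.553 in the distal stretch and 0.556 in the rest. On chromosome 11 the ratio was 1.17 under 200 bp and 0.992 at 1600 bp or more. On chromosome 6 it was 0.814 under 200 bp and 0.584 at 1600 bp or more. Over the 17 autosomes other than 6 and 8 together it was 1.19 and 1.01. The ratio was thus lower in the widest class than in the narrowest in each of these sets. It was below 1 in 5 of 5 classes on chromosome 8 and in 1 of 5 on chromosome 11.

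Regions of the 2 libraries that overlap one another form a shared cluster, and the summed K3R3 width of a cluster was set against its summed wild-type width. K3R3 was the narrower at 3635 of the 5330 shared clusters of chromosome 8 (68.2%, 66.9 to 69.4), against 37.1% over all chromosomes. It was the wider at 1040 (19.5%), against 49.5% over all chromosomes, and equal at the remaining 655. On chromosome 11 K3R3 was narrower at 35.1% and wider at 51.8% of clusters, while on chromosome 6 it was narrower at 66.6% and wider at 20.1%, much as on chromosome 8. The mean log2 ratio of K3R3 to wild-type width was -0.30 on chromosome 8 and 0.12 on chromosome 11. The median on chromosome 8 was -0.15, with quartiles of -0.47 and 0.00, so most differences were small. K3R3 was at least 1.5 times narrower at 1130 clusters of chromosome 8 (21.2%, against 8.54% over all chromosomes) and at least 1.5 times wider at 193 (3.62%, against 13.9%).

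Narrower K3R3 regions were found along the whole of chromosome 8. The mean log2 width ratio was negative in 24 of 24 windows of 5 Mb, and its lowest value was -0.42 at 70 to 75 Mb, where K3R3 was narrower at 78.3% of clusters. The means per window of chromosome 11 ran from -0.015 to 0.23. K3R3 was narrower at 68.5% of distal clusters (65.2 to 71.5), with a mean log2 ratio of -0.32, and at 68.2% of the others, with a mean of -0.29. The end of the chromosome beyond the distal stretch had the smaller values of 62.4% (57.3 to 67.2) and -0.20. In the densest window of chromosome 11, K3R3 was narrower at 35.9% of clusters.

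A narrower K3R3, counting a difference of any size, was more frequent at wide places. By merged width of the place, K3R3 was narrower at 49.1% of chromosome 8 clusters under 200 bp, 60.5% at 200 to below 400 bp, 71.6% at 400 to below 800 bp, 78.8% at 800 to below 1600 bp and 81.4% at 1600 bp or more. The corresponding values on chromosome 11 were 28.9, 27.0, 37.1, 42.5 and 43.2%. K3R3 was therefore narrower more often on chromosome 8 in each class. At 1600 bp or more it was narrower at 75.9% of distal clusters (68.7 to 81.9) and 84.1% of the others (79.7 to 87.8), with overlapping intervals. Equal widths fell from 15.7% of chromosome 8 clusters under 200 bp to 5.14% at 1600 bp or more. K3R3 at least 1.5 times narrower did not rise in this way. On chromosome 8 it was most frequent under 200 bp, at 31.8%, against 19.5, 18.2, 21.8 and 25.5% in the wider classes in order.

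At either end of a region, the K3R3 edge lay inside the wild-type edge more often on chromosome 8 than on chromosome 11. At the 5060 clusters of chromosome 8 with 1 region of each library, the K3R3 region began after and ended before the wild-type region in 1814 cases (35.8%), and the wild-type region lay inside K3R3 at both ends in 282 (5.57%). On chromosome 11 the corresponding shares were 12.7% and 23.8%. Coordinates move in steps of 25 bp, and the median K3R3 edge on chromosome 8 lay 1 step inside the wild-type edge at either end. The median edge offset of chromosome 11 was 0 bp. The mean inset on chromosome 8 was 46.5 bp per edge, with 64.3 bp in the distal stretch and 43.3 bp in the rest, against -10.6 bp on chromosome 11, where a negative value means that the K3R3 edge lay outside. Midpoints of the 2 regions were within 100 bp of each other at 89.2% of these clusters on chromosome 8 and 89.9% on chromosome 11.

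**Figure D3:**
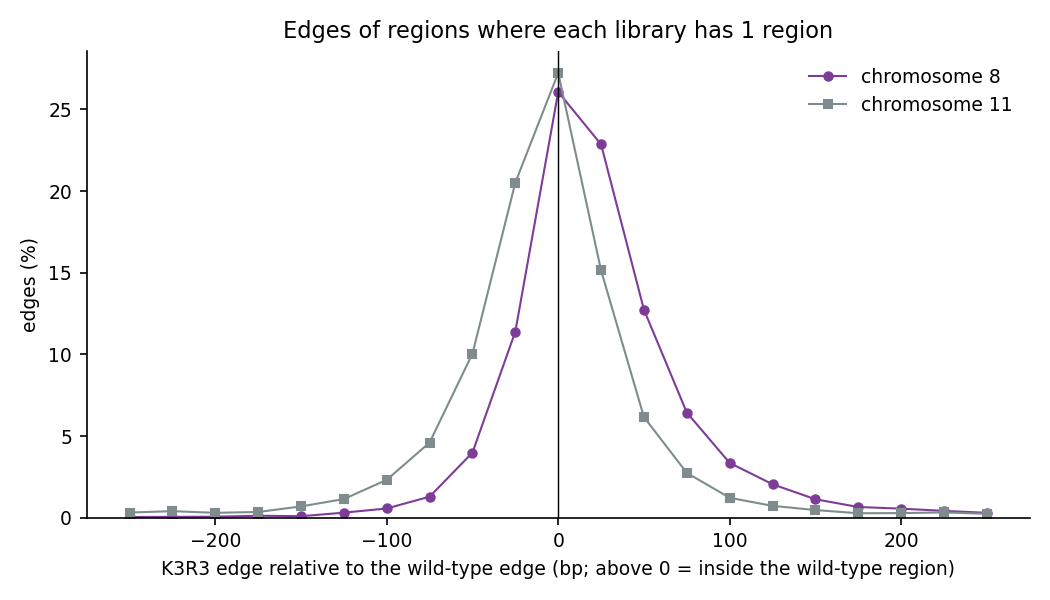
Position of the K3R3 edge relative to the wild-type edge, in bp, at clusters with 1 region of each library; values above 0 lie inside the wild-type region, and both ends of each region are counted. On chromosome 8 (circles) 22.9% of edges lay 25 bp inside and 11.4% lay 25 bp outside, and on chromosome 11 (squares) 15.1% lay inside and 20.5% outside by that distance.

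Wild-type regions that were broken into several K3R3 regions were also commoner on chromosome 8 than the reverse. A single wild-type region lay over several K3R3 regions at 245 clusters (4.60%, 4.07 to 5.19), against 2.18% over all chromosomes. A single K3R3 region lay over several wild-type regions at 24 clusters (0.450%), against 1.52% over all chromosomes. On chromosome 11 the counts were close to each other, with 134 split wild-type regions (2.19%) and 117 split K3R3 regions (1.91%). Chromosome 6 showed the imbalance of chromosome 8, with 179 split wild-type regions (3.53%) and 25 split K3R3 regions (0.493%). Of the 24 windows of 5 Mb on chromosome 8, 23 had more split wild-type than split K3R3 regions and 0 had fewer. On chromosome 11, 11 windows had more split wild-type and 9 more split K3R3 regions. The window of 70 to 75 Mb, with the lowest width ratio, had 31 split wild-type and 2 split K3R3 regions.

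Splitting was more frequent in the distal stretch, where places are wider. There, 63 wild-type regions were split (7.53% of clusters), against 182 (4.05%) in the rest of chromosome 8. Clusters of at least 1600 bp made up 18.9% of distal clusters and 6.88% of the others. Within that class the split wild-type share was 29.7% in the distal stretch (47 of 158) and 27.2% in the rest (84 of 309). At 800 to below 1600 bp it was 7.08% in the distal stretch and 9.56% in the rest, so at like width the 2 stretches were close. On chromosome 11 it was 12.3% at 1600 bp or more (54 of 440), and on the whole of chromosome 8 28.1% (131 of 467). Split K3R3 regions of that width were 2.57% of clusters on chromosome 8 and 10.2% on chromosome 11.

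**Figure D4:**
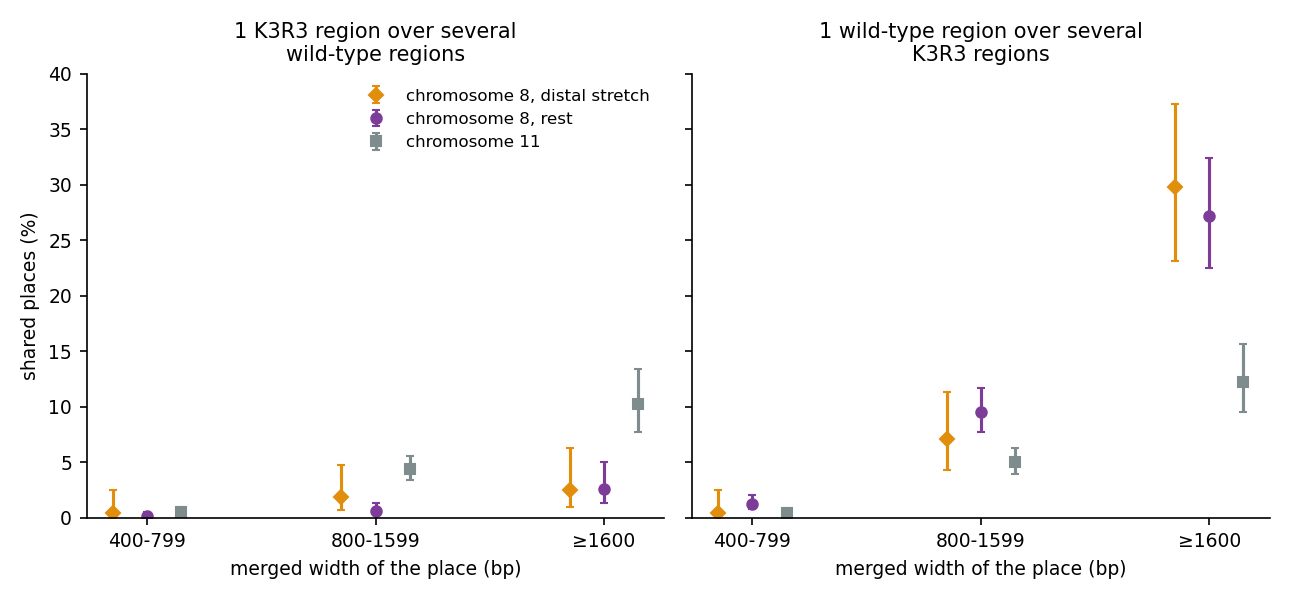
Share of shared places at which 1 K3R3 region lies over several wild-type regions (left) and at which 1 wild-type region lies over several K3R3 regions (right), by merged width in bp, with 95% Wilson intervals. In the widest class, wild-type regions were split at 29.7% of places in the distal stretch of chromosome 8 (diamonds), 27.2% in the rest of chromosome 8 (circles) and 12.3% on chromosome 11 (squares).

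The pieces of a split region mostly covered the larger part of the whole. Of the 245 split wild-type regions on chromosome 8, 225 lay over 2 K3R3 regions, 19 over 3 and 1 over 4. The undivided regions had a median width of 1625 bp, and the K3R3 pieces covered a median of 70.6% of it. The 266 gaps between pieces had a median of 275 bp, and 178 of them (66.9%, 61.1 to 72.3) were at most 300 bp, close to the smallest gap of 225 bp found in any list. A gap of at least 1000 bp occurred 4 times. When regions within 1000 bp of each other were joined in each list and counted anew, there were 148 split wild-type regions on chromosome 8. Joining closes nearly all of the 266 gaps. The 148 thus come mainly from longer joined regions and are not a remainder of the 245.

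Individual places show what these counts look like. Coordinates are in mm9 and start at 1. The widest wild-type region of chromosome 8, at chr8:73266026-73273650, was 7625 bp wide, and K3R3 covered 83.6% of it in pieces of 2500 and 3875 bp. The next, at chr8:90836751-90843175, was 6425 bp wide and lay over 3 K3R3 regions of 1425, 3950 and 350 bp, the second of which is itself among the 3 widest K3R3 regions. The third, at chr8:24275401-24281575, was 6175 bp wide, and K3R3 covered 48.2% of it in pieces of 1700 and 1275 bp. Each of the 3 widest wild-type regions was thus split in K3R3.

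The wild-type region with the most K3R3 pieces, at chr8:97507651-97510975, was 3325 bp wide and held 4 of 600, 375, 300 and 675 bp. The widest K3R3 region went the other way. It covered 7000 bp at chr8:13220526-13227525, where the wild type had 3 regions of 1100, 4550 and 1650 bp that covered 92.9% of it. The next K3R3 region in width, at chr8:11004401-11008425, was 4025 bp wide and lay wholly within a wild-type region of 5650 bp. That wild-type region held 2 more K3R3 pieces, of 725 and 250 bp.

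At places of at least 1000 bp, the lowest width ratios were far more extreme than the highest. The lowest were 75 bp of K3R3 against 2325 bp of wild type at chr8:87289451-87291775 (log2 -4.95), 75 bp against 1175 bp at chr8:11215701-11216875 (log2 -3.97), and 275 bp against 3450 bp at chr8:122930801-122934250 (log2 -3.65). The highest were 1600 bp of K3R3 against 625 bp of wild type at chr8:98136001-98137675 (log2 1.36), 1025 bp against 475 bp at chr8:123547051-123548100 (log2 1.11), and 1200 bp against 575 bp at chr8:123748626-123749825 (log2 1.06). In the stricter lists the second of these turned, with 425 bp of K3R3 against 450 bp of wild type. A K3R3 region of 75 bp marks a place where little of the wild-type region passed the threshold in K3R3. How far below the threshold the remainder lay cannot be read from the lists.

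Stricter regions of 1 library were counted as held by it alone where the looser list of the other had none in overlap. On chromosome 8 there were 607 of K3R3 (10.0% of its stricter regions, 9.30 to 10.8) and 2360 of the wild type (30.7%). Over all chromosomes the shares were 25.7% for K3R3 and 17.8% for the wild type, and on chromosome 11 they were 24.8% and 15.8%. In the distal stretch 89 K3R3 regions (8.83%) and 370 wild-type regions (29.7%) were of this kind, and in the rest of chromosome 8 518 (10.3%) and 1990 (30.8%). Most were narrow, with a median of 175 bp in K3R3 and 200 bp in the wild type. On chromosome 8, 487 K3R3 (8.05%) and 2090 wild-type stricter regions (27.1%) were absent from both lists of the other library. Over all chromosomes these shares were 23.1% and 14.7%. On chromosome 8, 434 stricter K3R3 (7.17%) and 442 stricter wild-type regions (5.74%) overlapped no looser region of their own library. By the first rule, those of K3R3 numbered 316 among regions of at least 200 bp. They numbered 956 when the looser wild-type list was shortened to the length of the K3R3 list, widest regions first. Those of the wild type numbered 1508 with neighbours within 1000 bp joined. Under each of these settings the wild-type number on chromosome 8 was the higher. Shortening left the K3R3 list, and so the wild-type number of 2360, unchanged. The stricter lists that supply these regions stayed at 6050 in K3R3 and 7699 in the wild type. That setting therefore did not set lists of equal length side by side.

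Wide regions held by 1 library, a count chosen after seeing the data, were nearly all of the wild type on chromosome 8. Those of at least 1000 bp numbered 4 of 660 K3R3 regions of that width (0.606%) and 120 of 1051 wild-type regions (11.4%, 9.63 to 13.5). On chromosome 11 they numbered 37 of 939 K3R3 regions (3.94%) and 46 of 978 wild-type regions (4.70%). Chromosome 6 was like chromosome 8, with 2 K3R3 and 56 wild-type regions of this kind. Over all chromosomes there were 462 K3R3 and 587 wild-type regions of this kind. Their share among regions of that width was computed on chromosomes 8 and 11 only. Of the 120 on chromosome 8, 79 had no cover in the stricter K3R3 list either, 20 were covered there over less than 50% of their length and 21 over 50% or more. The lists of a library are not nested, which is how a region can be absent from the looser K3R3 list and present in the stricter one. The distal stretch held 41 of the 120, which is 14.4% of its wild-type regions of that width (10.8 to 19.0), against 10.3% in the rest (8.34 to 12.7).

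The widest regions held by the wild type alone all lay in the distal stretch. At chr8:122863426-122866550 a wild-type region of 3125 bp had no looser K3R3 region, and the stricter K3R3 list covered 17.6% of it. At chr8:122875951-122878500 a region of 2550 bp had none in either K3R3 list, with the nearest looser K3R3 region 425 bp away. At chr8:124470426-124472900 a region of 2475 bp was covered over 44.4% in the stricter K3R3 list.

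Among regions held by K3R3 alone, the widest lay in the distal stretch as well, at chr8:124797751-124800475. It was 2725 bp wide, and the stricter wild-type list covered 65.1% of it. A region of 2475 bp at chr8:23543176-23545650 had no wild-type region in either list, with the nearest looser one 8050 bp away. A region of 1300 bp at chr8:48565401-48566700 had its nearest looser wild-type region at 33125 bp. These 2 are the clearest cases of K3R3 places without wild-type regions nearby among those named.

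Chromosomes 8 and 11 were also divided into bins of 100 kb, a choice made after seeing the data. Bins with at least 20 kb of wild-type cover were ranked. Wild-type cover is also the denominator of the ratio, with no like filter on K3R3 cover, so this choice favours low ratios. Among the ranked bins of chromosome 8, K3R3 cover was lowest relative to the wild type at 122.8 to 122.9 Mb, in the distal stretch. This bin held 21 K3R3 and 33 wild-type regions, which covered 16.7 kb and 40.9 kb, a ratio of 0.409. It contains both of the widest wild-type-only regions given above. It held 6 wild-type-only regions of at least 1000 bp, where no other bin of the chromosome held more than 3. Among the 6, those at chr8:122861376-122862550 (1175 bp) and chr8:122881251-122882475 (1225 bp) overlapped no looser region of the wild type itself. The next bin, from 122.9 Mb, had a ratio of 0.681. Over the 37 bins of chromosome 8 with that cover, the ratio ran from 0.409 to 0.923 with a median of 0.747, and it was below 1 in every one. On chromosome 11, 16 such bins ran from 0.809 to 1.37 with a median of 1.09, and 6 were below 1. The densest 1 Mb window of the chromosome, which starts 2 Mb into the distal stretch, held 397 places, with 316 K3R3 and 371 wild-type regions.

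**Figure D5:**
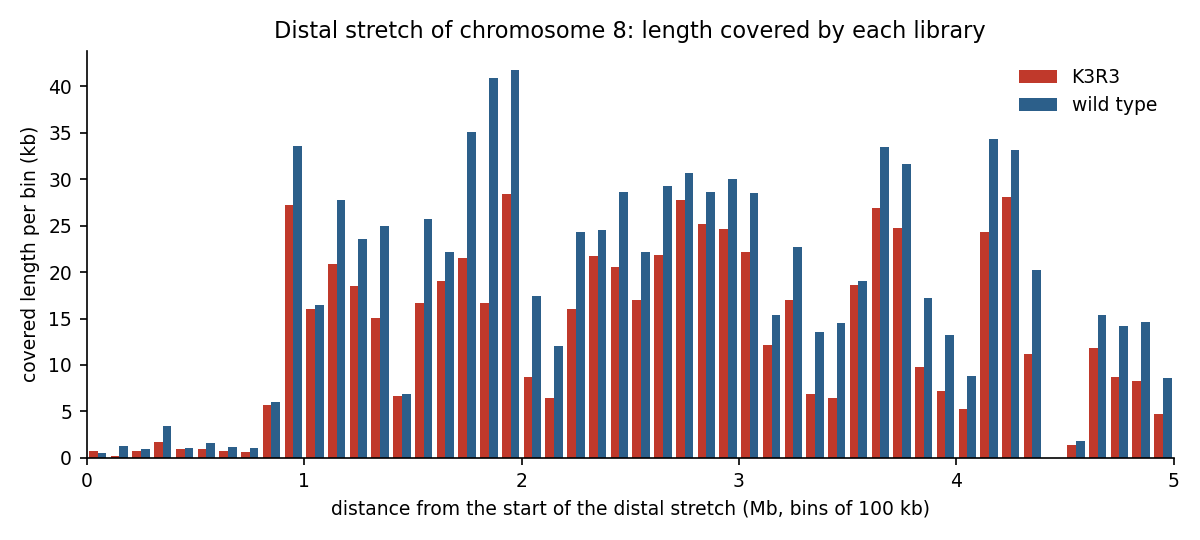
Length in kb covered by K3R3 (red) and wild-type (blue) regions of the looser lists in 100 kb bins, against the distance in Mb from the start of the distal stretch of chromosome 8. In the bin that starts 1.8 Mb from the start, K3R3 covered 16.7 kb and the wild type 40.9 kb.

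Raising the threshold lost few regions of either library. On chromosome 8, 87.3% of looser K3R3 regions and 90.4% of looser wild-type regions overlapped a stricter region of the same library, and on chromosome 11 89.1% of K3R3 and 90.4% of wild-type regions did. On chromosome 8 the median region lost was 75 bp wide in either library. Of the K3R3 regions, 92.4% of those kept and 65.7% of those lost were shared with the wild type. Of the wild-type regions, 73.1% of those kept and 25.1% of those lost were shared with K3R3. The wild-type regions that did not pass the stricter threshold were thus mostly without a K3R3 partner. In the distal stretch the stricter lists held slightly more regions than the looser ones, with 1008 in K3R3 and 1246 in the wild type. Of these, 84 in K3R3 and 74 in the wild type overlapped no looser region of their own library. In addition, 3.58% of K3R3 looser regions there (36) and 4.76% of wild-type looser regions (57) were broken into several at the stricter threshold.

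Neighbouring K3R3 regions lay farther apart on chromosome 8. The median gap to the next region of the same library was 4400 bp in K3R3 and 3687.5 bp in the wild type, and in the distal stretch 1725 bp and 1375 bp. On chromosome 11 the order was the opposite, with 3625 bp in K3R3 and 4162.5 bp in the wild type. Both libraries left the same long stretches of chromosome 8 empty. The 3 longest gaps between regions, empty in all 4 lists, were chr8:20032701-22044825 (2.01 Mb), chr8:56198976-57911150 (1.71 Mb) and chr8:103882001-105203625 (1.32 Mb). Before the first region lay a longer empty stretch, as no looser region of either library fell in the first 3 Mb. Whether reads can be placed in any of these empty stretches was not tested.

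The order of chromosomes 8 and 11 in density of K3R3 regions depends on what the regions are counted over. By length, chromosome 8 held 47.8 K3R3 and 59.4 wild-type regions per Mb, and chromosome 11 held 70.5 K3R3 and 61.1 wild-type regions per Mb. The RefSeq table of the build GRCm38.p6 lists 1043 protein-coding genes on chromosome 8 and 1609 on chromosome 11. This gives 6.03 K3R3 and 7.50 wild-type regions per gene on chromosome 8, and 5.33 K3R3 and 4.63 wild-type regions per gene on chromosome 11. The number of genes is the same for both libraries and does not bear on the ratio between them. It comes from another build than the regions, and no region was linked to a gene.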

How the data were processed

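Bowtie 0.12.3, the build mm9 and bedtools are named, with no role, per the submitters' processing notes. How regions were called, and against which control, is not given in the sources used here. Per the labels' protocols, chromatin was sonicated in 30 cycles of 30 s, fragments of 200 to 400 bp were selected, and libraries were amplified for 19 cycles. The deposited lists hold no other measure than the start and end of each region, called in each library separately at 2 thresholds. Coordinates were multiples of 25 bp. Read depth is unknown, and list lengths were not adjusted for it.

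Regions were placed by their midpoint, and coordinates are printed from 1. Shares have 95% Wilson intervals and count ratios exact Clopper-Pearson intervals. Named places were the 3 most extreme by width, by splitting, by width ratio and among regions of 1 library, and the largest gaps. The members, measures and rules were chosen with earlier results of these data known. Alternatives covered the threshold, joining within 1000 bp, a minimum width of 200 bp, the overlap rule, equal numbers and the bounds of the distal stretch. The gene table is of GRCm38.p6, so regions have no gene names and no sequence is printed. Python 3.11.15, numpy 2.4.6, scipy 1.17.1 and matplotlib 3.10.9 were used. The interval code was tested on simulated data and against bedtools 2.31.1, and 11 of 11 checks matched.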

Additional observations from a re-analysis of the deposited data

How the results depend on the processing

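No paired analysis was possible because there was 1 library per group. Of 62 alternative values for 11 results, 37 stayed within their interval, or for counts within 1.5 times, and 25 moved further. Among the ratios of region number and covered length, 0 passed to the other side of 1. Direction was not scored for the shares and the other counts. The shared part of K3R3 regions on chromosome 8 moved to 89.8% in the stricter lists, 89.9% with neighbours within 1000 bp joined, 91.2% without regions under 200 bp, 87.6% with 50% of the region covered, 72.8% with reciprocal overlap of 50%, 92.8% within 1000 bp, 80.4% with equal numbers and 90.4% against either list. The wild-type part moved to 72.1% with neighbours joined, 61.4% with 50% covered, 58.6% with reciprocal overlap, 77.1% within 1000 bp, 76.4% with equal numbers and 71.4% against either list. K3R3 was narrower at 70.9% of clusters in the stricter lists and 69.6% with neighbours joined, and at least 1.5 times narrower at 21.2%. Split wild-type regions numbered 148 with neighbours joined, and split K3R3 regions 15 without the distal stretch. Regions of K3R3 alone numbered 316 at 200 bp or more and 956 against the shortened wild-type list, and those of the wild type alone 1508 with neighbours joined. In the distal stretch, joining gave a count ratio of 0.917 (0.823 to 1.02) and K3R3 narrower at 72.6%, and K3R3 was at least 1.5 times narrower at 23.5%. The cause of these shifts was not tested. Leaving out the distal stretch, taking either list of the other library and shortening the lists for regions of 1 library were chosen after seeing the data. So were the bins of 100 kb and the count of regions of 1 library of at least 1000 bp.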
